A study of Mus musculus with 14 samples.

Results

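Steady-state poly(A) RNA of mouse 3T3 fibroblasts was compared with the RNA recovered from a sucrose gradient of the same cell line, 3' end by 3' end. The 3' end of an mRNA is the poly(A) site at which it was cleaved and tailed, and many genes use more than 1. Of 33590 annotated poly(A) sites, 14529 were members of the comparison, because they held 60 or more reads in the 2 control libraries together or 200 or more reads in the 6 gradient fractions together. Both minimums were passed by 12088 ends, only the control minimum by 1330 and only the fraction minimum by 1111. The members took 98.5% of the gradient signal and 98.4% of the control signal.

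The gradient was 1 series of 6 fractions from 3T3 cells, each made into 1 library, and the reference was 2 libraries of total RNA from untreated 3T3 cells, named control 1 and control 2. The method was 2P-Seq: poly(A) RNA is partly cut with RNase T1, reverse transcribed from a primer on the tail, circularised, amplified and read from the tail inwards. The fractions are named 0, 1, 2.5, 4.5, 7.5 and 12 in the table, numbers that serve as weights in the authors' score of ribosomes per mRNA. A library after 1 h of actinomycin D (10 µg/ml), which stops transcription, and 1 after 8 h were used beside them, also from total RNA of these cells. 3T3 is an established line of fibroblasts, the cells that build connective tissue matrix. The labels name no culture, passage or lysis buffer, so the controls may be technical replicates, p-values measure only the spread between these libraries, and the gradient has no replicate. In bulk RNA, fewer cells of a kind and less RNA per cell cannot be told apart.

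In a sucrose gradient, mRNAs sediment according to how many ribosomes they carry: free RNA and messenger particles stay at the top, single ribosomes below them, and polysomes further down. Total RNA taken with a phenol reagent holds the RNA of every compartment of the cell, whereas a gradient holds only what the lysate carried onto it. A ratio of the fraction sum to total RNA therefore describes which 3' ends were under- or over-represented in the gradient as a whole, a separate quantity from where in the gradient an mRNA lay. The table lists each site by position alone, in build mm9, and an annotation of that build was not used here. Ends are therefore given by position and no gene is named.

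The fraction counts were divided by the header's factors and summed, and both sides were expressed in ppm, the counts per 1000000 counts over all sites. Library totals were 1663346 to 11575417 counts in the fractions, 43702195 in all, and 5843403 and 6433503 counts in the controls. After scaling, fraction 0 gave 5.92% of the sum, fraction 1 10.0%, fraction 2.5 22.1%, fraction 4.5 19.6%, fraction 7.5 18.4% and fraction 12 24.0%. No single fraction therefore made up most of the sum. PCR reads are not independent molecules, so depth limits the precision only as far as counting error goes.

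Across the members, many 3' ends differed between the gradient and total RNA. With edgeR's quasi-likelihood test, 2100 of 14529 ends were lower in the gradient sum (14.5%, the share called over all ends tested) and 1162 were higher (8.0%), at an adjusted p under 0.05. The median log2 change was -1.61 among the ends called lower and 1.24 among those called higher. As a description of the same values without a test, 2197 ends (15.1%) were at least 2-fold lower in the gradient than in each control. At least 2-fold higher were 949 (6.53%). Of these, 738 lower ends had passed the control minimum alone and 327 higher ends the fraction minimum alone. Without fraction 12 in the sum, edgeR called 3353 ends lower and 1748 higher, and without control 2 the ends at least 2-fold higher numbered 2130. At 4-fold the counts over all members were 501 lower and 53 higher, but 238 of the lower ends had passed the control minimum alone and 41 of the higher ends the fraction minimum alone. The shares of signal in the called ends are a description, since the choice of these ends fixed the direction of the difference. Of the calls, 390 lower ends had passed the control minimum alone and 118 higher ends the fraction minimum alone. Ends called lower held 8.89% of the gradient sum, against 25.7% of control 1 and 24.6% of control 2. Those called higher held 27.4% of the gradient sum, against 12.4% of control 1 and 13.4% of control 2.

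These differences were wider than the spread between the controls. Among the 12088 ends past both minimums, the log2 ratio of gradient to control had an SD of 0.86, and the log2 ratio of control 1 to control 2 an SD of 0.47. Of these ends 1459 were at least 2-fold lower than each control (12.1%) and 622 at least 2-fold higher (5.15%), and 663 (5.48%) were at least 2-fold apart between the controls. At least 4-fold from each control were 263 lower and 12 higher ends, and at least 8-fold 31 lower and 0 higher ends. The median log2 ratio was -0.05, with the middle 50% between -0.64 and 0.47 and the extremes at -3.995 and 2.69. By edgeR, 1710 of these ends were lower in the gradient (14.1%) and 1044 were higher (8.64%). The test takes its spread from the controls alone, with 1 residual degree of freedom before moderation, and assumes that the single gradient varies like them.

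**Figure D1:**
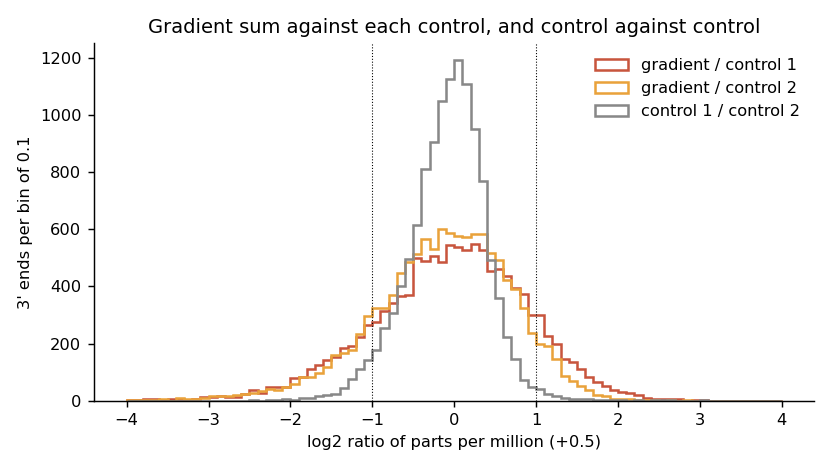
Distribution over the 12088 ends past both minimums of the log2 ratio of ppm (0.5 ppm added) for the gradient sum over control 1, the gradient sum over control 2 and control 1 over control 2, in bins of 0.1; dotted lines mark 2-fold. Both gradient curves (SD 0.86 against the mean control) are wider than the curve between the controls (SD 0.47) and have a longer tail on the low side.

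Ends that entered through 1 side only had to differ, so their ratios are given as values and support nothing. The 1330 ends past the control minimum alone had a median log2 ratio of -1.24, and the 1111 ends past the fraction minimum alone one of 0.84. Just inside the control minimum, 163 ends with 60 to 64 control reads and under 200 fraction reads had a median of -0.78, and just outside it, 218 ends with 55 to 59 had -0.70. Just inside the fraction minimum, 117 ends with 200 to 209 fraction reads and under 60 control reads had a median of 0.56, and just outside it, 122 ends with 190 to 199 had 0.41. Values thus run on across both thresholds.

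Among ends past both minimums, the 3 low ends named by rank were 16.1- to 16.9-fold lower in the gradient, and in each the gradient lay below both controls, as their choice required. On chromosome 15 (minus strand, 103174722), the gradient sum held 7.65 ppm, against 95.8 and 162.4 ppm in the controls (16.9-fold lower, log2 change -4.08 ± 0.43 SE, edgeR adjusted p = 1.97e-05). On chromosome 2 (plus strand, 27893076), it held 6.32 ppm, against 103.5 and 106.5 ppm in the controls (16.6-fold lower, edgeR adjusted p = 3.58e-06). On chromosome 4 (minus strand, 57956714), it held 7.84 ppm, against 153.2 and 100.3 ppm in the controls (16.1-fold lower, edgeR adjusted p = 5.32e-06). What was left of them lay in different places: fraction 12 was the fullest for the first and second of these ends, with 31.7% and 29.5% of the gradient signal, and fraction 2.5 for the third, with 31.3%.

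Still lower ratios occurred at 5 named ends with fewer than 200 fraction reads. They were members through the control minimum alone and so had to be low in the gradient, and their values are given as a description. The end on chromosome 7 (plus strand, 16702475) held 0.808 ppm in the gradient sum, against 87.1 ppm in control 1 and 71.35 ppm in control 2, and was 98.0-fold lower. Its fractions 0, 1, 2.5, 4.5, 7.5 and 12 held 1, 3, 1, 6, 20 and 9 reads, against 509 and 459 reads in the controls. The end was present in total RNA, and its few gradient reads lay mostly in fraction 7.5 (43.7% of its gradient sum) and fraction 12 (23.1%). It held 102 ppm after 1 h of actinomycin D and 164 ppm after 8 h, so total RNA libraries other than the controls held it too.

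The end second in rank, on chromosome 19 (minus strand, 5795690), had 2.10 ppm in the gradient sum, against 74.8 and 147.8 ppm in the controls (53.2-fold lower). Its few gradient reads lay at the top: fraction 0 held 35 of 69 reads, which after scaling is 59.3% of its gradient sum, and fraction 12 held 6. In contrast to the end on chromosome 7, it was also low after actinomycin D, with 12.6 ppm at 1 h and 5.93 ppm at 8 h. When the 1 h library was added to the controls, its log2 change was -5.21 and its edgeR adjusted p 0.207.

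At the other 3, fraction 12 was the fullest fraction. On chromosome 11 (plus strand, 94813139), the gradient sum held 1.82 ppm, against 105.1 and 61.7 ppm in the controls (45.7-fold lower), and 43 of its 78 fraction reads, 48.9% of its gradient signal, were in fraction 12. On chromosome 4 (minus strand, 63620822), an end alone in its locus held 1.74 ppm in the gradient sum, against 66.9 and 75.5 ppm in the controls (41.0-fold lower), with 39 of 78 reads in fraction 12. On chromosome 19 (plus strand, 6376037), the gradient sum held 2.02 ppm, against 44.5 and 38.55 ppm in the controls (20.6-fold lower), with 52 of 91 reads in fraction 12. The 1 h library held 56.9, 52.4 and 13.25 ppm of these ends, above the gradient in each.

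Past both minimums, the highest ratio was 2.69 and the lowest -3.995 on the log2 scale. Ends past the fraction minimum alone reached 3.61, at an end with 5 control reads in all. The highest called end past both minimums, on chromosome 3 (plus strand, 60433301), held 329.7 ppm in the gradient sum, against 39.9 and 61.55 ppm in the controls (6.48-fold higher, log2 change 2.70 ± 0.28 SE, edgeR adjusted p = 8.79e-06). Its reads were spread over the polysomes, with 27.7% of the gradient signal in fraction 2.5, 20.2% in fraction 4.5 and 22.3% in fraction 7.5. An end on chromosome X (minus strand, 43809008), alone in its locus, held 223.6 ppm in the gradient sum, against 47.8 and 29.7 ppm in the controls (5.79-fold higher, edgeR adjusted p = 2.41e-05). It lay lighter, with 22.2% of its signal in fraction 1 and 4.47% in fraction 12. The gradient values of both ends stood above both controls and above the 1 h library, which held 83.8 ppm of the first and 38.1 ppm of the second.

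The other 6 of the 8 highest ends were 4.49- to 5.06-fold higher in the gradient. At 2 of them little was left late in actinomycin D. An end on chromosome 19 (plus strand, 23242615) held 85.5 ppm in the gradient sum, against 15.7 and 20.4 ppm in the controls (edgeR adjusted p = 9.90e-05), and 9.65 ppm at 1 h and 0.742 ppm at 8 h of actinomycin D. An end on chromosome 2 (minus strand, 139659215) held 26.9 ppm in the gradient sum, against 3.59 and 7.15 ppm in the controls (edgeR adjusted p = 0.00155), and 6.55 ppm at 1 h, and had no read at 8 h. Both levels in the gradient were thus above every total RNA library shown, whatever its time. An end on chromosome 11 (minus strand, 86847393) had 28.9 ppm in the gradient sum, against 6.33 and 5.44 ppm in the controls, and 35.6% of its gradient signal was in fraction 0. On the same chromosome (minus strand, 72989023), 203.7 ppm in the gradient sum, against 46.4 and 44.3 ppm in the controls, lay mainly in fraction 2.5, with 54.3% of the signal, and leaving that fraction out brought its log2 change of 2.17 down to 1.399 (edgeR adjusted p = 0.0024). High ratios thus occurred at ends that lay at the top, in light polysomes and further down. The remaining ends were on chromosome 3 (plus strand, 79750198; 165.8 ppm in the gradient sum, against 28.4 and 37.0 ppm in the controls) and chromosome 14 (minus strand, 99434691; 33.0 against 7.36 and 5.91 ppm). Without fraction 2.5 the log2 change of the end on chromosome 14 was 1.72 in place of 2.31 (edgeR adjusted p = 0.00979). Fraction 2.5 was the fullest of this end and of the end at 72989023, so both falls had to follow.

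**Figure D2:**
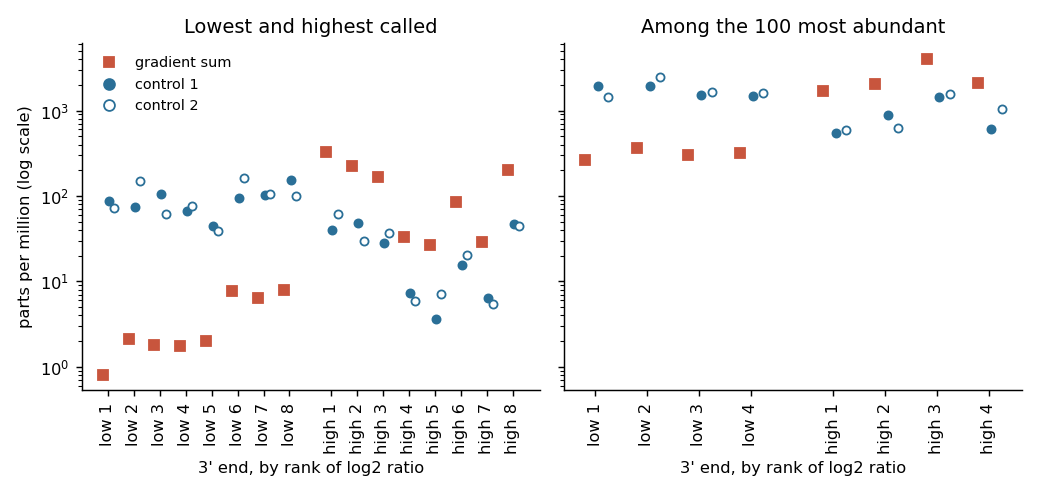
Level in ppm (log scale) of each named 3' end in the gradient sum (squares), control 1 (filled circles) and control 2 (open circles), left for the 8 lowest and 8 highest called ends and right for the 4 lowest and 4 highest of the 100 most abundant ends, each by rank of its ratio. The 8 lowest and 8 highest ends were chosen for lying at least 2-fold from each control, and their gradient values run from 98.0-fold lower to 6.48-fold higher; the 5 lowest of them passed the control minimum alone.

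Abundant mRNAs differed as well. Of the 100 most abundant ends, 12 were called lower and 28 higher in the gradient (edgeR adjusted p under 0.05), beside 14.5% and 8.0% of all ends tested, and 0 of them were 2-fold apart between the controls. Their median log2 ratio was 0.29, with the middle 50% between -0.30 and 0.75. Called shares rose with abundance in general. In the least abundant of 5 equal classes of the ends past both minimums (up to 11.3 ppm, 2418 ends), 1.86% were called lower and 0.579% higher. In the most abundant (above 81.2 ppm, 2418 ends), 21.8% were called lower and 19.0% higher. The median log2 ratios of these classes were -0.06 and 0.04, and those of the other classes lay between -0.11 and -0.04, so the typical ratio moved little while the number of calls rose.

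Of the 4 lowest abundant ends, 3 had most of their gradient signal in fraction 12. On chromosome 8 (minus strand, 87365989), the gradient sum held 262 ppm, against 1964 and 1439 ppm in the controls (6.48-fold lower, edgeR adjusted p = 1.33e-05), and 68.0% of its gradient signal was in fraction 12. On chromosome 6 (plus strand, 4491008), the gradient sum held 369 ppm, against 1952 and 2488 ppm in the controls (6.02-fold lower, edgeR adjusted p = 1.35e-05), with 58.4% in fraction 12. On chromosome 2 (plus strand, 34631974), it held 305 ppm, against 1522 and 1642 ppm in the controls (5.19-fold lower, edgeR adjusted p = 1.91e-05), with 52.9% in fraction 12. What the gradient held of these ends thus lay mainly in the heaviest fraction, at a level far under that in total RNA. Without that fraction the log2 change was -3.94 in place of -2.70 on chromosome 8 and -3.46 in place of -2.59 on chromosome 6. On chromosome 2 it was -3.06 in place of -2.38. These falls had to follow, because the fullest fraction of each end was left out, and are a description. The end on chromosome 1 (minus strand, 71632096) was an exception: the gradient sum held 317 ppm, against 1469 and 1587 ppm in the controls (4.82-fold lower, edgeR adjusted p = 2.41e-05), and its signal was spread over the gradient, with 17.8% in fraction 12.

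The 4 abundant ends with the highest ratios lay in the lighter part of the gradient. On chromosome 16 (plus strand, 10174715), the gradient sum held 1698 ppm, against 552 and 591 ppm in the controls (2.97-fold higher, edgeR adjusted p = 0.000168), and 42.3% of the signal was in fraction 2.5. On chromosome 8 (plus strand, 96704224), it held 2028 ppm, against 893 and 618 ppm (2.69-fold higher, edgeR adjusted p = 0.000858), with 59.7% in fraction 2.5. Leaving fraction 2.5 out of the sum brought its log2 change of 1.42 down to 0.47 (edgeR adjusted p = 0.2145). On chromosome 11 (minus strand, 97639333), the gradient sum held 3996 ppm, against 1456 and 1570 ppm in the controls (2.64-fold higher, edgeR adjusted p = 0.000511), with 25.9% in fraction 1. On chromosome 1 (plus strand, 162968667), it held 2098 ppm, against 614 and 1037 ppm in the controls (2.53-fold higher, edgeR adjusted p = 0.00501), with 49.5% in fraction 1. Without fraction 1 its log2 change of 1.35 became 0.51 (edgeR adjusted p = 0.230). For these ends on chromosomes 8 and 1, much of the excess thus lay in the fullest fraction, and a smaller excess remained without it. Without fractions 0 and 1 together, the log2 change of the end on chromosome 1 was 0.02. Leaving out the fullest fraction of an end had to lower its ratio, so these values are a description.

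Called classes differed in profile as well. Ends past both minimums that were called lower and at least 2-fold below each control (1347 ends) had a median of 38.9% of their gradient signal in fraction 12, with the middle 50% between 23.8% and 51.1%. Ends called higher and at least 2-fold above each control (579 ends) had a median of 11.7% there, between 8.52% and 17.2%, and ends not called (9334 ends) one of 25.9%. Fraction 12 was the fullest fraction of 71.2% of the ends called lower, of 9.33% of those called higher and of 46.1% of those not called. Ends called higher were fullest in fraction 2.5 (43.2%) or fraction 4.5 (24.9%). In the authors' deposited table, the median number of ribosomes per mRNA was 7.12 for the ends called lower, 4.96 for those called higher and 6.44 for those not called. Ratio and profile come from the same 6 fraction libraries, so this is a description of 1 gradient.

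**Figure D3:**
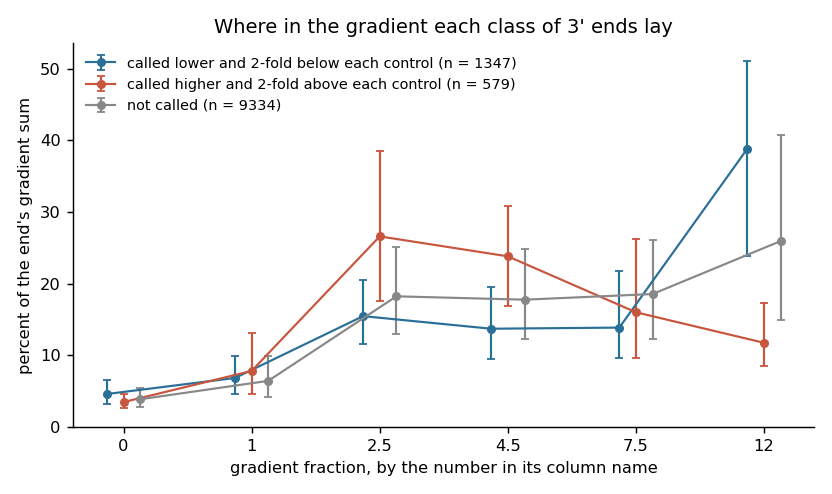
Median percent of an end's gradient sum (vertical axis) in each fraction, named as in the table (horizontal axis), for ends called lower and 2-fold below each control (n = 1347), called higher and 2-fold above each control (n = 579) and not called (n = 9334); bars span the middle 50% of ends. The ends called lower have a median of 38.9% in fraction 12, against 25.9% for ends not called, and those called higher 11.7%.

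Because the classes were chosen on the sum of the fractions, their levels in single fractions are a description. Against the mean control, the ends called lower had median log2 ratios of -2.01, -2.25, -2.17, -2.17, -2.03 and -1.09 in the libraries of fractions 0, 1, 2.5, 4.5, 7.5 and 12, each scaled to its own total. They were nearest to their level in total RNA in fraction 12. The ends called higher had medians of 0.65, 1.04, 1.65, 1.65, 1.23 and 0.40 in the same order, and the ends not called medians between -0.65 and 0.06. The classes were chosen for gradient values far from the controls, so a total RNA library outside the test was largely bound to stand closer to them. After 1 h of actinomycin D the median log2 ratio to the mean control was -0.24 for the ends called lower and 0.26 for those called higher. For those not called it was -0.11. Both called classes thus leaned the way of the gradient, but the controls also served in the choice.

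The gradient was also set beside the 1 h library, a separate library of total RNA in which decay also counts. The called ends were picked by these same gradient values, so a like direction was largely fixed by that choice. Of the 2100 ends called lower, 2010 were lower in the gradient than in the 1 h library, 1460 of them at least 2-fold (69.5%). Of the 1162 ends called higher, 1160 were higher in the gradient than in the 1 h library, 602 of them at least 2-fold (51.8%). Over all 14529 members, 2069 were at least 2-fold lower in the gradient than in the 1 h library and 2427 at least 2-fold higher. Both sets of called ends share the gradient with the test and are no replicate of it. With the 1 h library added to the controls, edgeR called 853 ends lower and 303 higher, all of them among the calls made with the controls alone.

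Persistence during actinomycin D, measured as the log2 ratio of the 8 h to the 1 h library and so in libraries outside the comparison, had a higher median in every called class than among ends not called. Its median was -0.71 for the ends called lower, -0.61 for those called higher, -0.61 for 828 ends called but under 2-fold from a control, and -1.08 for those not called, relative to library totals. The middle 50% overlapped widely: it ran from -1.72 to 0.09 for the ends called lower, from -1.76 to 0.09 for those called higher and from -2.11 to -0.20 for those not called. Abundance moved with these classes: the median control level was 58.5 ppm for the ends called lower, 26.5 ppm for those called higher, 79.9 ppm for those called under 2-fold and 22.5 ppm for those not called. Its part in the difference was not tested.

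Neighbouring 3' ends were summed into loci where each end was within 2000 nt of the next on the same strand, so that a locus stands roughly for a gene, though it can join neighbours. Of 9894 loci tested, 1628 were lower (16.5%) and 783 higher (7.91%) in the gradient (edgeR adjusted p under 0.05). A locus needed to pass only 1 of the minimums, so these counts include loci that entered through 1 side alone and had to differ. Loci past both minimums were not counted apart. The median log2 change was -1.52 for the loci called lower and 1.14 for those called higher. Over all loci it was -0.13, and TMM scaling, which centres the typical locus, moved it to -0.02 and called 1707 lower and 1353 higher, 44.2% of the calls against 32.5% with library totals.

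Ends of loci with many alternative ends were better represented in the gradient than ends that stand alone. Of 3173 ends past both minimums that were the only end of their locus, 636 were called lower and 237 (7.47%) higher, beside 14.1% and 8.64% of all such ends. The shares were 16.6% and 8.14% for loci with 2 ends, 12.3% and 9.06% with 3, and 8.22% and 9.78% with 4 or more (3700 ends). The median log2 ratio went the same way, at -0.22, -0.08, -0.01 and 0.09 for 1, 2, 3 and 4 or more ends. Ends of larger loci were less abundant, with a median control level of 21.0 ppm in loci of 4 or more ends and 35.7 ppm in loci of 1. In each of the 5 abundance classes, ends of loci with 4 or more ends had the higher median. In the middle class, for example, the median was 0.16 for 705 ends of loci with 4 or more ends and -0.32 for 648 lone ends, and in the least abundant class -0.02 and -0.08. The log2 ratio of control 1 to control 2 also moved with the number of ends, from 0.01 for lone ends to -0.14 in loci of 4 or more, and its part in the result was not tested.

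Medians lay close together on all chromosomes, while called shares varied. The median log2 ratio of ends past both minimums ran from -0.18 on chromosome 17 (567 ends) to 0.13 on chromosome X (350 ends). The share called lower ran from 9.40% on chromosome 13 to 18.9% on chromosome 7. The share called higher was lowest on chromosome 7, at 4.90%, and reached 11.3% on chromosomes 12 and 18 and more on chromosome 6. On the X chromosome 42 ends were called lower and 35 (10.0%) higher, against 14.2% and 8.60% on the autosomes. The X chromosome also had the lowest median ratio of control 1 to control 2, at -0.23 against -0.05 on the autosomes, so the controls differed there by more than the gradient did in median.

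Ends of the same locus mostly moved together. The 2 most abundant ends of a locus, each with at least 60 control reads, gave 2797 pairs. Both log2 ratios had the same sign in 2018 pairs (72.2%), and across pairs the ratios of the distal and the proximal end correlated with a Pearson r of 0.59. The correlation was 0.78 in 979 pairs under 100 nt apart and 0.44 in 645 pairs 1000 nt or more apart. It is a description across pairs that share the same 8 libraries. Of 593 pairs with an end called lower, 183 had both ends called lower, and of 420 with an end called higher, 93 had both. Over all ends tested, 14.5% were called lower and 8.0% higher. In most of these pairs the other end was thus not called the same way. In 14 pairs 1 end was called lower and the other higher.

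Whole loci were depleted in several named cases. At the locus on chromosome 2 around 27893076, the 4 other member ends, 33 to 1952 nt away, had log2 ratios of -3.08, -2.32, -3.06 and -2.56, with edgeR adjusted p-values between 2.01e-05 and 0.0134. At the abundant locus on chromosome 6 around 4491008, an end 43 nt upstream held 68.4 ppm in the gradient sum, against 700 and 418 ppm in the controls, and an end 487 nt downstream 19.4 ppm, against 287 and 196 ppm. At the locus on chromosome 11 around 94813139, an end 21 nt away held 74.4 ppm in the gradient sum, against 547 and 377 ppm in the controls (edgeR adjusted p = 2.39e-05). All ends of these loci that were members fell together.

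In other loci a single end was missing from the gradient beside a neighbour that was not. On chromosome 4, the end at 57956714 was 16.1-fold lower, while the end 82 nt away (57956632) held 3969 ppm in the gradient sum, against 3916 and 3922 ppm in the controls (log2 ratio 0.02, edgeR adjusted p = 0.966). The end between them, at 57956655, held 336 ppm in the gradient sum, against 227 and 237 ppm in the controls (edgeR adjusted p = 0.125). On this strand 57956714 is the most proximal of the 3 ends. It also stood out after actinomycin D, with 122 ppm at 1 h and 535 ppm at 8 h.

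In the gradient the typical pair lay slightly further towards its distal end, by a shift of the order of the difference between the controls. The median log2 ratio of distal to proximal reads was 0.34 in the gradient, against 0.19 in control 1, 0.22 in control 2 and 0.19 in the 1 h library. Within pairs, the gradient minus the mean of the controls had a median of 0.10, with the middle 50% between -0.35 and 0.60, and the distal end was lower in 1192 of 2797 pairs (42.6%). Control 1 minus control 2 had a median of -0.05. Here too 1 direction led, as the distal end was relatively lower in control 1 in 55.7% of pairs. The median shift was 0.10 under 100 nt, 0.06 from 100 to under 500 nt, 0.18 from 500 to under 1000 nt and 0.08 at 1000 nt or more, so it did not rise steadily with distance. Control 1 minus control 2 had medians of -0.03, -0.04, -0.10 and -0.12 in the same order. At 1000 nt or more the controls thus differed by more in median than the gradient did. Within single pairs the differences, in either direction, were larger in size than between the controls, with an SD of 0.86 against 0.54 and a median size of 0.49 against 0.28. With 1 gradient against 2 controls the smallest p of an exact permutation over libraries is 0.333, so none is given.

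**Figure D4:**
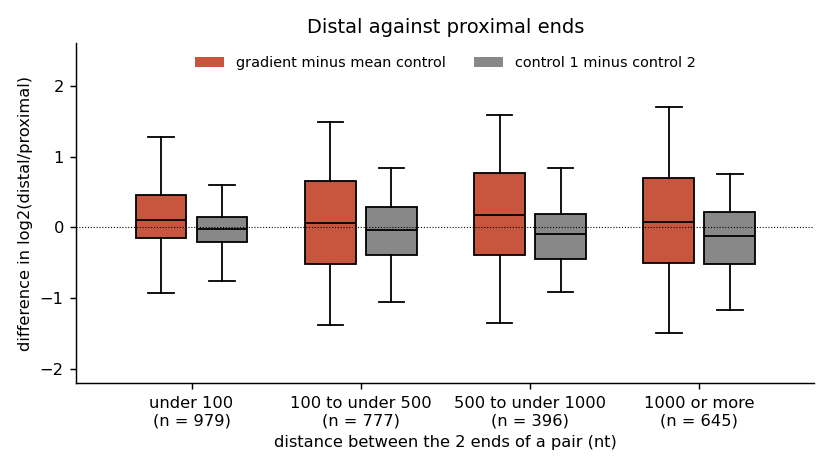
Difference in log2(distal/proximal) within pairs of 3' ends by the distance between the ends in nt, for the gradient minus the mean of the controls and for control 1 minus control 2; boxes span the middle 50% of pairs with the median as a line, whiskers the 5th to 95th percentile. The gradient boxes are wider than the control boxes in every distance class, with medians between 0.06 and 0.18.

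No single pair passed the test. In edgeR's model of distal against proximal within libraries, 0 of 2797 pairs were called in either direction (0.0% of pairs), with 246 pairs with a lower and 389 with a higher distal end at an unadjusted p under 0.05 and a lowest adjusted p of 0.0882. DESeq2 called 52 with a lower and 88 with a higher distal end. As a description, the gradient ratio was at least 2-fold below both controls in 149 pairs and at least 2-fold above both in 252, while the controls themselves were at least 2-fold apart in 186. The pairs below were chosen by size.

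In the pair with the largest shift towards the distal end, on chromosome 7, the proximal end at 16702475 had the lowest ratio of all members, while the distal end 848 nt downstream (16703323) held 15.4 ppm in the gradient sum, against 24.99 and 21.6 ppm in the controls (edgeR adjusted p = 0.279). The pair differed by 5.86 on the log2 scale (edgeR log2 change 6.00 ± 0.38 SE, adjusted p = 0.0882). On chromosome 19 (plus strand), the proximal end at 6376037 was 20.6-fold lower and the distal end 1158 nt downstream (6377195) held 198.3 ppm in the gradient sum, against 225.7 and 200.7 ppm in the controls. In both loci the gradient held little of the proximal end, beside a distal end that was not called. Both proximal ends had passed the control minimum alone and so had to be low. On chromosome 3 (plus strand, proximal 90418229, distal 90418335), the proximal end held 2.29 ppm in the gradient sum, against 44.15 and 11.97 ppm in the controls, which disagreed. Its distal end held 13440 ppm in the gradient sum, against 8066 and 6052 ppm in the controls. On chromosome 13 (minus strand, proximal 54694946, distal 54693787), the proximal end held 25.6 ppm in the gradient sum, against 149.6 and 147.8 ppm in the controls, and the distal end 14.8 ppm, against 5.82 and 4.35 ppm.

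The opposite shift was led by the locus on chromosome 19 (minus strand) named above. Its distal end at 5795690 was 53.2-fold lower, while the proximal end 309 nt upstream (5795999) held 13.5 ppm in the gradient sum, against 27.9 and 15.85 ppm in the controls (edgeR adjusted p = 0.265). On chromosome 15 (plus strand), proximal and distal ends 1730 nt apart moved in opposite directions. The proximal end (103075390) held 357 ppm in the gradient sum, against 99.3 and 174.6 ppm in the controls (edgeR adjusted p = 0.00599), and the distal end (103077120) 97.9 ppm, against 207.6 and 349 ppm (edgeR adjusted p = 0.00536). The proximal end was thus the larger in the gradient and the distal end the larger in each control, but in the 1 h library, also total RNA, the proximal end was the larger too, at 219.8 ppm against 121.9 ppm of the distal end. The pair differed by -2.90 on the log2 scale (edgeR adjusted p = 0.0882). The other pairs of this group were on chromosome 4 (plus strand, 43579735 and 43579866, difference -3.15) and chromosome 10 (minus strand, 76061668 and 76060832, difference -2.77), with 97 and 6 reads of the distal end over all fractions.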

How the data were processed

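The labels list 14 samples, of which the 2 control and 6 gradient libraries were compared and the 1 h and 8 h actinomycin D libraries shown beside them. The 3P-Seq libraries were not used here. The authors deposited raw read counts at poly(A) sites annotated by 3P-Seq, in mm9, per the file headers. Bowtie is named in the submitters' processing notes, without a version. The factors in the file headers were applied as divisors. The labelled fractions were matched to the columns by rising number, an assumption that does not touch the sum. The authors' deposited ribosomes per mRNA score was recomputed as the mean of the fraction names weighted by scaled counts, within 1e-06, for 30164 of 30164 sites. Half-life, given with no unit, was not used.

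The scaled fraction sum was rescaled to the mean control total, rounded and tested against the deposited control counts with edgeR 4.0.16 in R 4.3.3 (quasi-likelihood, robust, library totals, Benjamini-Hochberg over all features tested). DESeq2 1.42.0 was an alternative. SE is the log2 change divided by the square root of F. Ratios of ppm carry a pseudocount of 0.5 ppm, while fold values carry none. Calls of pairs need 60 control reads per end.

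The fits were tested on simulated counts, with 100 features changed by 1 and 100 by 2 on the log2 scale. At a change of 1, 17 ends, 23 loci and 26 pairs were recovered. At a change of 2, 63 ends, 91 loci and 94 pairs were recovered. Many true 2-fold changes can therefore go uncalled. The simulated counts were drawn with the spread of the fitted trend, the gradient varying like the controls. The recovery of pairs thus does not describe the test of the real pairs, where a log2 change of 6.00 ± 0.38 SE went uncalled (edgeR adjusted p = 0.0882). That 0 pairs were called does not show that large differences were absent. Named ends were the 8 lowest and 8 highest ratios among called ends at least 2-fold from each control (200 control reads for low ends, both minimums for high ends, 1 end a locus), the 4 lowest and 4 highest of the 100 most abundant, and the 4 pairs of largest difference each way. Ends or pairs named as their neighbours were chosen after their values were seen. Members, lists and tests were chosen with earlier results of these data known. The planned gene lists and cell type markers could not be applied without gene names.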

Additional observations from a re-analysis of the deposited data

How the results depend on the processing

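Ends called lower numbered 1490 to 2400 under the alternatives other than those named here. Scaling moved the ends called higher more, from 1162 with library totals to 1712 with TMM and 1601 with RLE. Beside them, 2293 and 2075 ends were lower, against 2100 with library totals. With the 10 most abundant sites left out of the totals, 1563 were higher and 2271 lower. Leaving out each fraction gave 1876 to 3353 lower and 1011 to 1748 higher ends, and 1470 to 2591 lower and 659 to 1222 higher loci, the highest of each without fraction 12. With the 1 h library added, 853 ends were lower and 303 higher. DESeq2, which gave no adjusted p for 2254 ends, called 556 ends and 465 loci higher, and TMM and RLE 1353 and 1246 loci higher. For pairs, DESeq2 called 52 lower and 88 higher, and every edgeR alternative called 0. No call of an end changed sign. The cause of these moves was not tested. Leaving out a fraction changes the sum, which is rescaled and stays 1 library against 2 controls.

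Counts of ends past the fold moved with their construction. They were 3664 lower and 2407 higher at 1.5-fold, 501 and 53 at 4-fold, 1459 and 622 with both minimums, 4000 and 4251 with no minimum, and 614 higher with a mean of 10 ppm. Leaving out each library gave 2041 to 3202 lower and 826 to 2130 higher, the most lower without fraction 12 and the most higher without control 2. Against the 1 h library alone, 2427 were higher.

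The median log2 ratio over members was 0.0093 with RLE, -0.15 with equal weights, 0.11 against the 1 h library, and between -0.211 (without fraction 12) and -0.02385 (without control 2) when a library was left out. The median pair difference lay between 0.069 (without control 1) and 0.1186 (without control 2) when a library was left out.

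Of 427 tests of named ends under alternatives, 4 lost the call and 0 changed sign. One of them was the end on chromosome 1 (162968667) without fractions 0 and 1 (edgeR adjusted p = 0.966). The named ends were chosen for extreme ratios and the alternatives mostly reuse the same libraries, so this outcome was largely fixed by the choice. DESeq2 called 7 named pairs. Tests without a control were not run, since 1 library against 1 leaves no residual degrees of freedom. No paired analysis was possible because the single gradient and the controls have fewer than 2 numbers in common. The 1 h library as an added control and the sum without fractions 0 and 1 were chosen after seeing the data. Depth limits calls at ends with few reads.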
